A study of Homo sapiens with 9 samples.

Results

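The stress-linked genes GDF15, FGF21, ADM2, STC1, STC2 and NUPR1 were followed in MDA-MB-231 cells, an established human triple-negative breast cancer line, under an inhibitor of glycolysis. The genes were taken by name from the deposited tables, which list 61552 genes, and all 6 were found. The cells were wild type in all groups and were grown in DMEM with serum. They received for 24 h the glucose analogue 2-deoxy-glucose (2-DG), which enters cells like glucose but inhibits glycolysis. The doses were 0 mM (control, in phosphate-buffered saline), 10 mM or 20 mM. Glycolysis itself was not measured in these libraries. Each group had 3 RNA-seq libraries, all from 1 cell line. Whether the libraries came from separate cultures is not stated, so the spread between them may be technical in part. Levels are given as FPKM, the reads on a gene divided by its length and by the depth of the library. RNA was measured and not hormone, so nothing here shows how much peptide the cells released.

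Cells that run short of nutrients or whose endoplasmic reticulum fills with unfolded proteins activate kinases that phosphorylate the translation factor eIF2 alpha, which slows most protein synthesis but lets the transcription factor ATF4 be made. ATF4 and its partner CHOP (encoded by DDIT3) then switch on genes for amino acid supply, protein folding and cell death, and also genes for secreted factors that carry the news of stress out of the cell. GDF15 acts on a brainstem receptor to curb food intake, FGF21 changes glucose and fat use in other tissues, ADM2 relaxes blood vessels, and the stanniocalcins STC1 and STC2 restrain the release of insulin-like growth factors. NUPR1 stands apart from the other 5, since it encodes a small nuclear protein that works in transcription and is not a hormone.

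Stress factors act on such genes through short DNA elements before the start of transcription, so the upstream DNA of 3 hormone genes is shown. RefSeq starts (assembly GRCh38.p14) were used for 4 of the 6 genes, FGF21, GDF15, ADM2 and STC2, and no window of NUPR1 or STC1 was searched. The 250 bases before the RefSeq start are printed 5′ to 3′ on the strand of the gene, and capitals mark a match to the motif TGATGNAA, the C/EBP-ATF composite element to which ATF4 binds with a C/EBP partner. The windows lie at chr19:48755274-48755523 for FGF21, chr19:18385908-18386157 for GDF15 and chr22:50481293-50481542 for ADM2, all on the plus strand.
FGF21: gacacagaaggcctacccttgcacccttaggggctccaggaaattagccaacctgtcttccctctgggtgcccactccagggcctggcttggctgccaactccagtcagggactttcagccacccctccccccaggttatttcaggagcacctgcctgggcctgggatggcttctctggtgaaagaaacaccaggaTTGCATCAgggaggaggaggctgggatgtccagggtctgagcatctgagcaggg
GDF15: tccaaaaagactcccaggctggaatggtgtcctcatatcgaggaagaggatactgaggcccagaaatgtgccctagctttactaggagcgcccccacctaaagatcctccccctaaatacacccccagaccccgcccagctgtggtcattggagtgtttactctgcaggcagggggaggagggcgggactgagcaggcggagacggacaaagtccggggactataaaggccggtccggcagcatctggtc
ADM2: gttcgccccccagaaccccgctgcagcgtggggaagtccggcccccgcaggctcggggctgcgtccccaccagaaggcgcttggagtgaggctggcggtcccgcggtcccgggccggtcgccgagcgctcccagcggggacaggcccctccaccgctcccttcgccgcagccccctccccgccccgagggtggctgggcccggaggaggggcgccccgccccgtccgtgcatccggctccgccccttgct

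The match in FGF21 is TTGCATCA, 54 to 47 bases before the start, and reads as TGATGNAA on the minus strand. Among all 27303 promoters of the same length 870 (3.19%) hold these letters on either strand. The windows of GDF15, ADM2 and STC2 hold none. The 3 other motifs searched on both strands were the endoplasmic reticulum stress element (CCAAT and CCACG with 9 bases between them, in 0.0806% of promoters), the ATF6 site TGACGTGG (0.667%) and the core of the hypoxia response element ACGTG (18.7%), and the 4 windows hold 0 of them. These are matches of letters in one window only and do not show what binds there. The RefSeq start need not be the start used in these cells.

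The total number of reads behind each library, recovered from the FPKM values, lay between 30974968 and 40843638, so that 1 read on a gene of 1 kb was worth between 0.0245 and 0.0323 FPKM. The defining genes of the line were present in every library, with VIM between 243 and 313 FPKM and CD44 between 52.9 and 74.1, whereas the hormone receptors ESR1 and PGR did not exceed 0.00829 and 0.0204 FPKM. ERBB2, the third receptor that is low in triple-negative lines, was not near 0, at 8.39 to 9.11 FPKM in the control libraries and 5.53 to 6.30 in the treated ones. The keratin KRT8, also a defining gene of the line, lay between 133 and 153 FPKM in the control and between 80.5 and 102 under 2-DG. The summed FPKM of 8 markers of immune, endothelial, stromal and liver cells ranged from 3.00 to 3.24 in the control, from 2.11 to 2.45 at 10 mM and from 1.87 to 2.17 at 20 mM. Most of it came from PECAM1 and COL1A1, and the endothelial CDH5 and the T cell gene CD3E were at 0 in 8 of the 9 libraries each. It moved with the treatment, and its part in the results was not tested. Mitochondrial genes took 25.7% to 27.4% of the summed FPKM in 8 libraries and 31.8% in 10 mM replicate 3. Without that library ADM2, NUPR1, GDF15 and STC1 still passed the test described next at 10 mM.

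Of the 6 genes 4 rose and 1 fell under 2-DG at the higher dose, and the sixth, FGF21, was read only in treated cells but was too rare for the test. These are bulk libraries, in which fewer cells that make a transcript and less of it in each cell cannot be told apart. Of the 16570 genes with enough reads to be tested (15 or more in all, and 10 or more, scaled to the median depth, in 3 or more libraries), 5 were members. At 10 mM against control, limma's moderated test on log2(FPKM + 1) gave a Benjamini-Hochberg adjusted p under 0.05, taken over all tested genes, for ADM2, NUPR1 and GDF15 as higher and for STC1 as lower. The same held for 12.1% of all tested genes in the higher and 17.5% in the lower direction. At 20 mM against control STC2 joined the higher genes, with a call that single libraries decide (given with its values), and the shares over all tested genes were 15.4% higher and 21.6% lower. The study's methods set a log2 fold change of more than 1 in size with p under 0.05, using DESeq2. Here these thresholds, with p before adjustment, were applied to limma's changes on log2(FPKM + 1), which is not the study's test. By them ADM2 alone was upregulated at 10 mM, against 0.579% of all genes higher and 1.16% lower. At 20 mM ADM2 was upregulated and STC1 downregulated, against 0.966% and 1.96%. The added 1 holds NUPR1 under this threshold. With a pseudocount of 0.1 or with limma-voom NUPR1 passed it at both doses, which makes 2 members at 10 mM. With limma-voom 4 members passed at 20 mM, STC2 included. The shares of all tested genes past these thresholds were taken for the fit on log2(FPKM + 1) only. The counts from the other settings therefore have no share to be read against. Both doses were compared with the same 3 control libraries, so their results are not independent of each other.

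**Figure D1:**
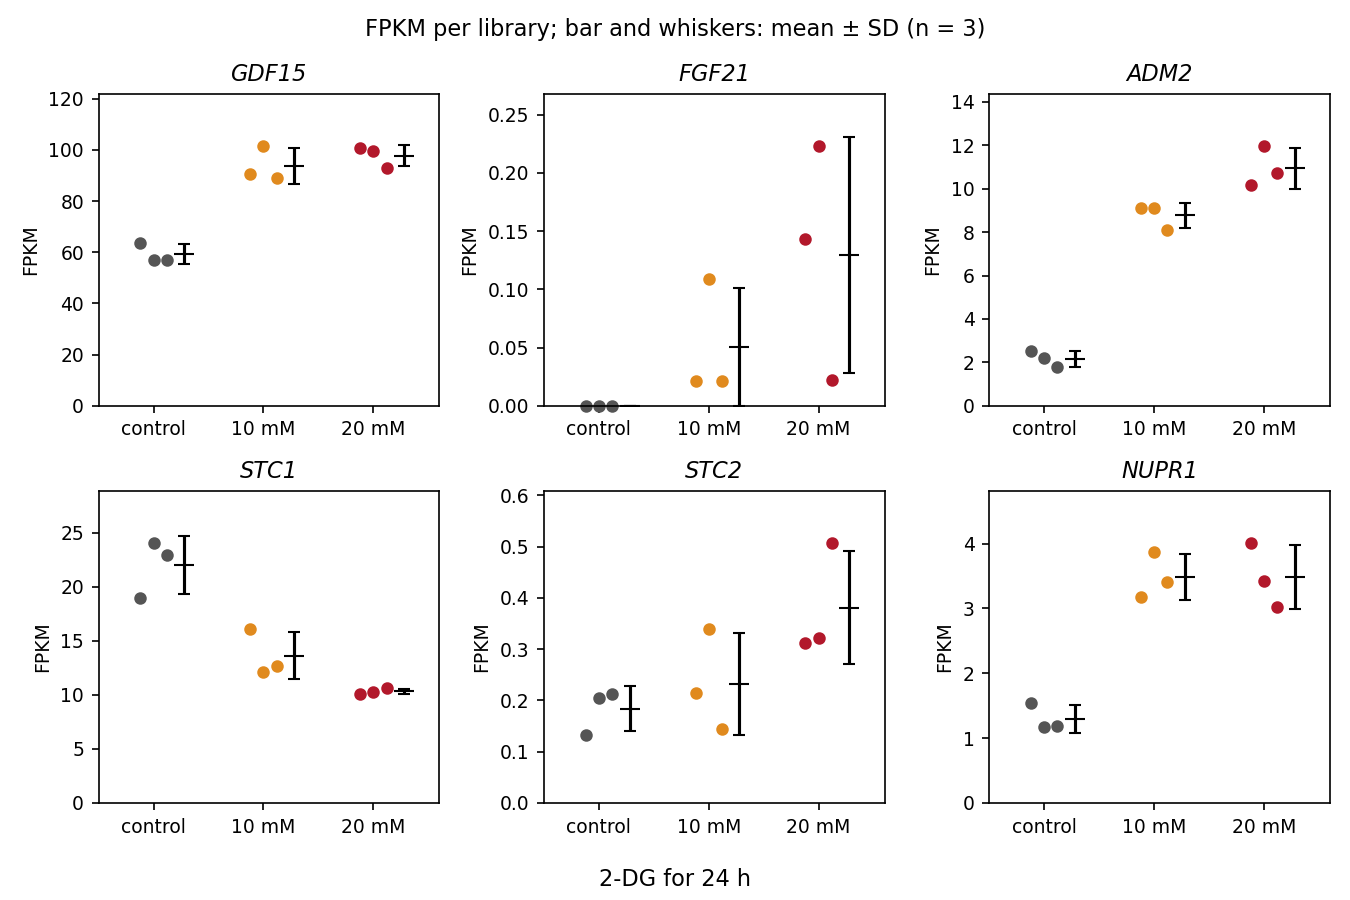
FPKM (vertical axes, linear and from 0, a scale of its own in each panel) of the 6 genes in the 9 libraries, by 2-DG dose; points are libraries and the bar with whiskers is the mean ± SD of 3. All treated libraries of GDF15, ADM2 and NUPR1 lie above the control libraries, those of STC1 lie below them, and FGF21 is at 0 in the 3 control libraries.

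GDF15, a distant member of the transforming growth factor beta family that signals through GFRAL and RET, was the most abundant of the 6. The gene (ENSG00000130513, protein coding, GENCODE 29 on GRCh38) spans chr19:18374731-18389176 on the plus strand. Its FPKM was 63.6, 57.0 and 57.0 in the control libraries, 90.4, 101.7 and 89.1 at 10 mM, and 100.6, 99.6 and 93.0 at 20 mM. Every treated library lay above every control library, and the libraries of the 2 doses overlapped. The mean rose from 59.2 ± 3.83 (SD, n = 3) to 93.7 ± 6.94 at 10 mM and 97.7 ± 4.13 at 20 mM, which is 1.58 and 1.65 times the control. The log2 fold change was 0.65 (SE 0.07, limma adjusted p = 0.000135) at 10 mM and 0.71 (SE 0.07, limma adjusted p = 5.09e-05) at 20 mM. It thus passed the adjusted test at both doses without reaching a doubling.

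FGF21, a circulating member of the fibroblast growth factor family that needs the co-receptor KLB, was at the edge of detection. The gene (ENSG00000105550, protein coding) spans chr19:48755559-48758333 on the plus strand. It had 0 reads in each of the 3 control libraries, 1, 6 and 1 reads at 10 mM, and 6, 12 and 1 reads at 20 mM. In FPKM these are 0.0211, 0.109 and 0.0215 at 10 mM and 0.143, 0.223 and 0.0224 at 20 mM. So every treated library held at least 1 read, yet replicate 2 supplied most of the reads at both doses. With 0 reads, the control group allows up to 3 reads over its summed depth, and against this floor FGF21 was at least 2.57-fold higher at 10 mM (8 reads) and at least 6.50-fold higher at 20 mM (19 reads), with the treated reads taken as counted. With the counting error of those reads the exact binomial 95% interval of the ratio of read rates to the control starts lower, at 1.65 for 10 mM and 4.79 for 20 mM. Without 10 mM replicate 2 the dose keeps 2 reads, under the floor, so that no fold can be given, and without 20 mM replicate 2 the bound against the floor is 3.88 (7 reads). FGF21 did not pass the filter for the test across genes. An exact two-sided permutation test over the libraries gave p = 0.1 for each dose against control, the smallest p that 3 against 3 allows, and p = 0.2 between the doses. The ratio of read rates between 20 mM and 10 mM was 2.52, with an exact binomial 95% interval from 1.06 to 6.67 that covers counting error only, and the FPKM values of the doses overlapped.

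ADM2, also called intermedin, is a peptide of the calcitonin family and had the largest fold change among the 5 tested genes at both doses. The gene (ENSG00000128165, protein coding) spans chr22:50481556-50486440 on the plus strand. Its FPKM was 2.51, 2.20 and 1.78 in the control, 9.10, 9.12 and 8.11 at 10 mM, and 10.2, 11.99 and 10.7 at 20 mM. The 3 groups did not overlap at any step. The mean rose from 2.17 ± 0.368 (SD, n = 3) to 8.78 ± 0.576 and 10.9 ± 0.941, that is 4.05 and 5.05 times the control. The log2 fold change was 1.63 (SE 0.10, limma adjusted p = 4.90e-06) at 10 mM and 1.92 (SE 0.10, limma adjusted p = 9.74e-07) at 20 mM. The reads behind these values numbered 991 in control cells, 4165 under 10 mM and 4911 under 20 mM.

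ADM (adrenomedullin), the close relative that uses the same receptors, was more abundant and did not pass the test, with 21.4 ± 0.244 FPKM (SD, n = 3) in control cells, 22.9 ± 1.35 under 10 mM and 22.1 ± 1.55 under 20 mM (limma adjusted p = 0.303 and 0.631). ADM2 therefore stood at 11.7%, 10.4% and 8.27% of the ADM level in the control libraries, at 41.4%, 37.3% and 36.4% at 10 mM and at 45.1%, 51.2% and 52.5% at 20 mM. The 3 groups of this ratio did not overlap. On the log2(FPKM + 1) scale the difference between ADM2 and ADM was 1.54 higher at 10 mM and 1.87 higher at 20 mM than in the control (exact two-sided permutation p = 0.1 for each, the smallest possible). With 0.1 added in place of 1 it was 1.88 higher at 10 mM and 2.25 higher at 20 mM.

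The stanniocalcins are paired glycoproteins, and in these cells STC1 fell while STC2 rose at 20 mM from a far lower level. Both are known to inhibit pappalysins, the proteases that cut insulin-like growth factor binding proteins. STC1 (ENSG00000159167, protein coding) spans 23841915 to 23854807 of chromosome 8 on the minus strand, and STC2 (ENSG00000113739, protein coding) spans 173314713 to 173329503 of chromosome 5 on the minus strand.

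The FPKM of STC1 was 19.0, 24.1 and 22.9 in the control, 16.1, 12.1 and 12.7 at 10 mM, and 10.1, 10.3 and 10.6 at 20 mM. Each step down the groups was free of overlap. The mean was 22 ± 2.68 (SD, n = 3), 13.6 ± 2.16 and 10.3 ± 0.261, so the control level was 1.61 times that at 10 mM and 2.13 times that at 20 mM. STC1 had a log2 fold change of -0.66 (SE 0.11, limma adjusted p = 0.00193) at 10 mM and -1.02 (SE 0.11, limma adjusted p = 9.69e-05) at 20 mM. The value at 20 mM lies close to the fold threshold of the study, and it was -0.95 without control replicate 2, -0.98 without control replicate 3, -0.9996 without 20 mM replicate 1, and -0.96 with median-ratio scaling. The adjusted p stayed under 0.05 in each of these.

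STC2 was measured at 0.133, 0.205 and 0.213 FPKM in the control, 0.214, 0.339 and 0.144 at 10 mM, and 0.313, 0.323 and 0.508 at 20 mM. The 10 mM libraries overlapped both other groups, and the 20 mM libraries lay above the control. The means were 0.184 ± 0.0438 (SD, n = 3), 0.232 ± 0.0987 and 0.381 ± 0.110 FPKM. These levels rest on 99, 133 and 199 reads per group. The ratio of read rates to the control was 1.30 at 10 mM (exact binomial 95% interval 0.992 to 1.70, counting error only) and 2.06 at 20 mM (1.61 to 2.65). At 10 mM the log2 fold change was 0.06 (SE 0.07, limma adjusted p = 0.612). At 20 mM it was 0.22 (SE 0.07, limma adjusted p = 0.0371) on the log2(FPKM + 1) scale, on which the added 1 outweighs so low a level, and 1.03 with limma-voom on the recovered reads (adjusted p = 0.0368). The adjusted p of the 20 mM result exceeded 0.05 without control replicate 1, 2 or 3 or 20 mM replicate 2 or 3, where the log2 fold change ranged from 0.16 to 0.25 and the adjusted p from 0.0501 to 0.125.

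In each library STC2 remained a small fraction of STC1. It stood at 0.704%, 0.850% and 0.929% of the STC1 level in the control, at 1.33%, 2.80% and 1.13% at 10 mM, and at 3.10%, 3.13% and 4.79% at 20 mM. The groups of this ratio did not overlap. On the log2(FPKM + 1) scale the difference between STC2 and STC1 was 0.71 higher at 10 mM and 1.24 higher at 20 mM than in the control (exact two-sided permutation p = 0.1 for each, the smallest possible). The added 1 outweighs the low level of STC2, so on this scale the difference mostly follows the fall of STC1. With 0.1 added in place of 1 it was 0.89 higher at 10 mM and 1.83 higher at 20 mM. By mean FPKM both genes took part in the shift at 20 mM, where STC2 was 2.07 times the control and the control level of STC1 was 2.13 times that under 2-DG.

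**Figure D2:**
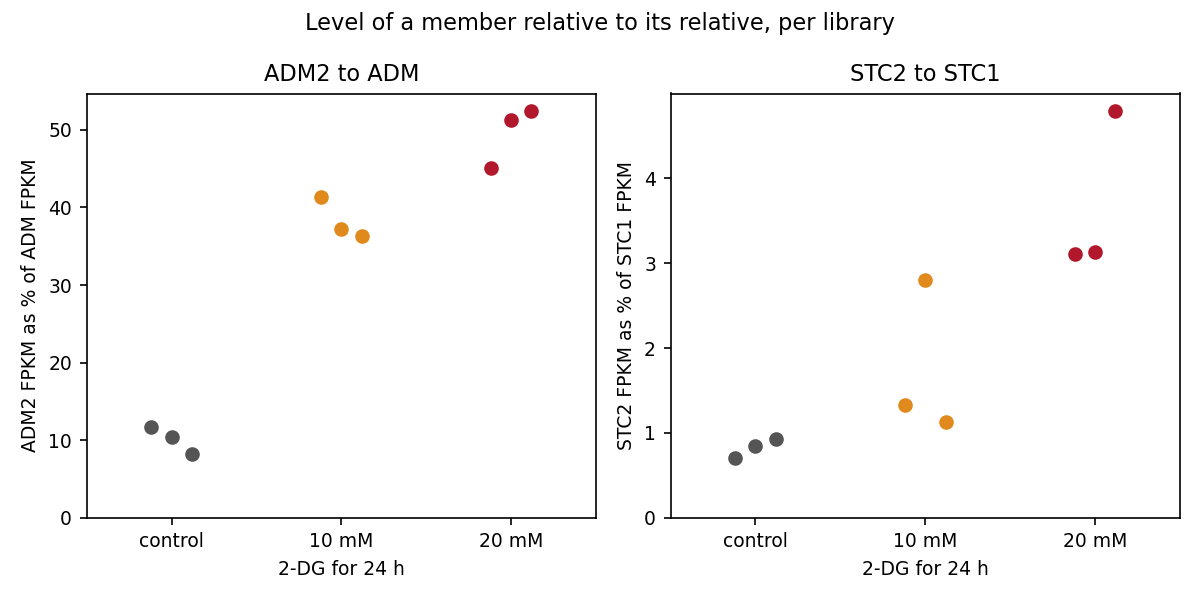
FPKM of ADM2 as a percent of ADM (left) and of STC2 as a percent of STC1 (right), each point 1 library and vertical axes linear from 0, by 2-DG dose. The groups are separate in both panels, from 8.27% to 11.7% in the control up to 45.1% to 52.5% at 20 mM for ADM2, and from 0.704% to 0.929% up to 3.10% to 4.79% for STC2.

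NUPR1, the nuclear stress protein, rose to a similar mean level at both doses. The gene (ENSG00000176046, protein coding) spans chr16:28532708-28539174 on the minus strand. Its FPKM was 1.54, 1.17 and 1.18 in the control, 3.18, 3.87 and 3.41 at 10 mM, and 4.02, 3.42 and 3.02 at 20 mM. Treated and control libraries were apart, and the doses overlapped. The mean rose from 1.30 ± 0.213 (SD, n = 3) to 3.49 ± 0.349 and 3.49 ± 0.50, which is 2.69 times the control at either dose. The log2 fold change was 0.97 (SE 0.11, limma adjusted p = 0.000210) at 10 mM and 0.96 (SE 0.11, limma adjusted p = 0.000149) at 20 mM, where the added 1 again shrinks the change. It crossed the fold threshold of the study without control replicate 1 (1.04 at both doses), without 10 mM replicate 1 (1.02 at 10 mM) and without 20 mM replicate 3 (1.04 at 20 mM).

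The 6 genes differed by 3 orders of magnitude in level. By mean FPKM over the 9 libraries GDF15 lay above 96.6% of the 13112 tested protein-coding genes, STC1 above 79.4%, ADM2 above 63.9%, NUPR1 above 42.4%, STC2 above 11.7% and FGF21 above 2.39%. This order held in every library for GDF15 over STC1, for ADM2 over NUPR1, for NUPR1 over STC2 and for STC2 over FGF21. STC1 and ADM2 drew together, with 22 against 2.17 FPKM in the control and 10.3 against 10.9 at 20 mM, where their libraries overlapped. FPKM divides by the length assigned to a gene, and that length, 5508 bases for NUPR1 and 5062 for STC2 as recovered from the values, sets how these levels compare between genes but not how each changes with dose.

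The summed FPKM of the 6 genes was 84.9 ± 1.86 (SD, n = 3) in control cells, 119.9 ± 6.92 under 10 mM and 123.0 ± 4.48 under 20 mM. GDF15 made up 67.3% to 73.3% of it in the control and 78.9% to 80.3% at 20 mM. The share of STC1 went from a range of 21.9% to 28.4% down to 8.04% to 8.99%, and that of ADM2 from 2.14% to 2.90% up to 8.11% to 9.52%. STC1 was thus the main gene after GDF15 in control cells, and at 20 mM it had about the same share as ADM2.

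Without overlap between libraries, 3 of the 5 tested members were higher and 1 lower at 10 mM, where 17.8% of all tested genes were higher and 22.7% lower in this sense. At 20 mM 4 were higher and 1 lower, against 23.3% and 29.9%. Such a separation is common in these data and adds little to the tests above.

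Between 20 mM and 10 mM the differences were small and none of the 5 tested genes passed the adjusted test. Of all 16570 genes 0 did in limma's test or with limma-voom (0.0%), 6.88% had an unadjusted p under 0.05, and 1 gene (0.00604%) passed the thresholds of the study. The log2 difference of 20 mM over 10 mM was 0.29 for ADM2 (95% interval 0.06 to 0.51, limma unadjusted p = 0.0177, adjusted p = 0.571) and -0.36 for STC1 (95% interval -0.61 to -0.11, limma unadjusted p = 0.00919, adjusted p = 0.487). These are the members whose dose groups did not overlap, as was true of 11.9% of all tested genes. For STC2 it was 0.16 (0.0035 to 0.33, limma unadjusted p = 0.0461, adjusted p = 0.720), for GDF15 0.06 (-0.10 to 0.22) and for NUPR1 -0.00 (-0.26 to 0.25). With limma-voom on the recovered reads, where no 1 is added, the difference was 0.72 for STC2 (-0.01 to 1.45, adjusted p = 0.808), so a further rise of STC2 between the doses could not be bounded closely.

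**Figure D3:**
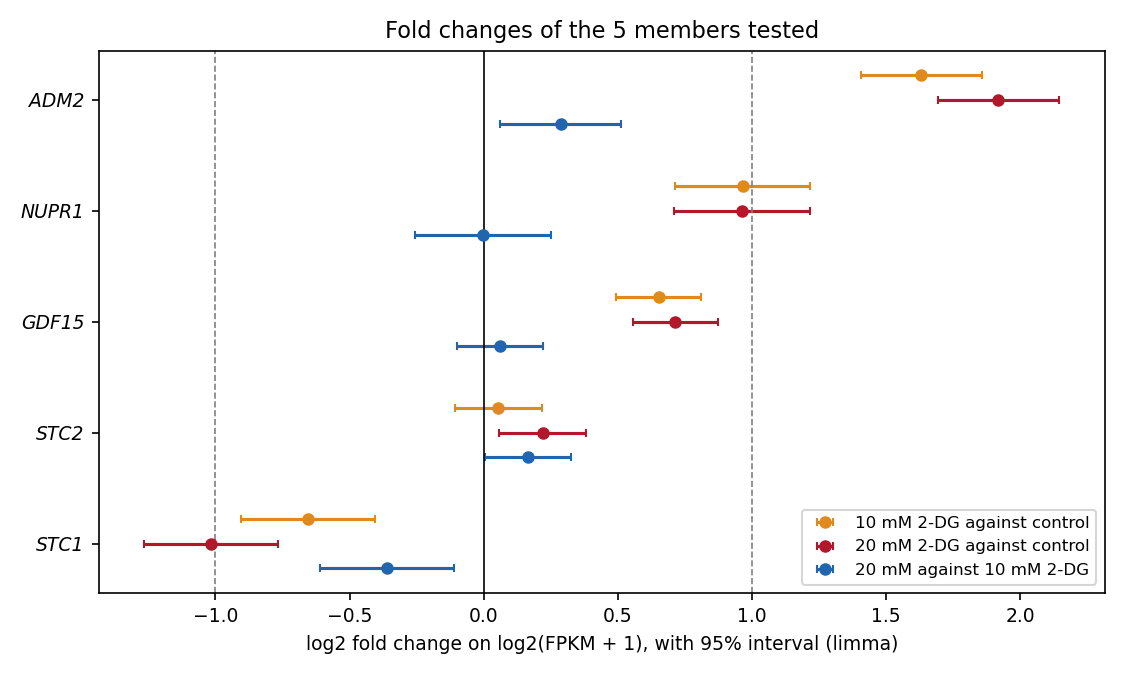
Log2 fold changes on log2(FPKM + 1) with limma's 95% intervals for the 5 tested genes (horizontal axis), in 3 comparisons told apart by colour; dashed lines mark the fold threshold of the study at -1 and 1. ADM2 lies beyond the threshold at both doses (1.63 and 1.92), STC1 at 20 mM only (-1.02), and the differences between the doses lie between -0.36 and 0.29.

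The receptors through which these hormones act were mostly at or near 0 in these cells. Of 12 receptors and co-receptors 4 had enough reads to be tested. GFRAL, the GDF15 receptor, and RAMP3 were at 0 in all 9 libraries, and KLB, the co-receptor of FGF21, and CALCRL, which binds ADM2, had mean levels of at most 0.0332 and 0.00666 FPKM in any group. FGFR1 was present and did not pass the test, at 9.38 ± 0.523 FPKM (SD, n = 3), 8.22 ± 0.692 and 8.57 ± 0.344. Of these 4 genes 3 fell at both doses, as 17.5% of all tested genes did at 10 mM and 21.6% at 20 mM, and 0 rose, and the median of their log2 fold changes at 20 mM was -0.37, against -0.02 over all tested genes. RAMP1, an accessory protein that fits calcitonin-family receptors to their peptides, fell from 12.9 ± 1.81 FPKM (SD, n = 3) to 6.17 ± 0.729 and 4.69 ± 0.282, with log2 fold changes of -0.95 and -1.28 (limma adjusted p = 0.000167 and 1.76e-05). FGFR3 and FGFR4 fell from 0.506 and 0.493 FPKM to 0.171 and 0.140 at 20 mM.

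Of 18 family relatives of the hormones 10 were tested, and 0 of them rose at either dose, where 12.1% of all tested genes rose at 10 mM and 15.4% at 20 mM. At both doses 4 fell, against 17.5% and 21.6% of all tested genes. Their median change (log2) was -0.00 at 10 mM and -0.08 at 20 mM. INHBB, a subunit of activin B and inhibin B, fell from 13.6 ± 0.625 FPKM (SD, n = 3) to 4.98 ± 0.368 and 4.32 ± 0.759, with log2 fold changes of -1.29 and -1.46 (limma adjusted p = 2.46e-05 and 6.46e-06). BMP4, a bone morphogenetic protein, fell from 29.4 ± 1.76 to 19.4 ± 1.88 and 20.2 ± 0.848 FPKM, and TGFB2 and INHBA were the others. TGFB1, the most abundant relative, did not pass the test at 54.9 ± 3.75, 60.1 ± 1.57 and 61.4 ± 1.37 FPKM.

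Of 11 processing enzymes and extracellular partners 8 were tested, of which 1 rose and 3 fell at 10 mM and 2 rose and 3 fell at 20 mM, and their median change at 20 mM was -0.07 (log2). Over all tested genes 12.1% rose and 17.5% fell at 10 mM and 15.4% rose and 21.6% fell at 20 mM. FURIN, a convertase that cuts prohormones, rose from 16.8 ± 1.70 FPKM (SD, n = 3) to 21.9 ± 2.16 and 24.8 ± 1.04. PAM, which amidates peptides of the calcitonin family, fell from 22.1 ± 1.51 to 18.7 ± 1.40 and 17.8 ± 0.774 FPKM. MMP14, a membrane protease, fell from 219 ± 2.64 to 177 ± 3.13 and 177 ± 1.65 FPKM. IGFBP4, the binding protein that the stanniocalcin target PAPP-A cuts, fell from 1155 ± 50.9 to 594 ± 70.0 and 541 ± 18.3 FPKM, with log2 fold changes of -0.97 and -1.09 (limma adjusted p = 8.46e-05 and 2.45e-05). PAPPA itself did not pass the test (0.613 ± 0.188 FPKM in the control and 0.565 ± 0.0858 at 20 mM). Its relative PAPPA2 rose at 20 mM from 0.0255 ± 0.0127 to 0.178 ± 0.0870 FPKM (limma adjusted p = 0.0256). These PAPPA2 levels are low, and at 10 mM PAPPA2 did not pass the test (0.114 ± 0.0696 FPKM, limma adjusted p = 0.168).

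The list of stress kinases, stress factors and genes that feed back on them moved mostly upwards. It was chosen with earlier results of these data known. All 23 were tested, and 12 rose and 2 fell at 10 mM and 14 rose and 4 fell at 20 mM, and the list's median change was 0.30 and then 0.47 (log2). The shares of all tested genes were 12.1% higher and 17.5% lower at 10 mM and 15.4% higher and 21.6% lower at 20 mM. ATF4 rose from 145 ± 6.81 FPKM (SD, n = 3) to 227 ± 20.9 and 228 ± 4.86. DDIT3, which encodes CHOP, rose from 27.2 ± 3.09 to 64.1 ± 11.3 and 77.1 ± 2.37 FPKM, by log2 fold changes of 1.20 and 1.47 (limma adjusted p = 7.15e-05 and 1.22e-05). TRIB3, a pseudokinase that feeds back on ATF4, rose from 29.7 ± 3.88 to 93.9 ± 6.05 and 114 ± 3.21 FPKM, by log2 fold changes of 1.64 and 1.92.

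CEBPG, a C/EBP partner of ATF4, rose from 13.7 ± 0.550 to 26.8 ± 0.686 and 30.5 ± 0.870 FPKM (SD, n = 3), and CEBPB from 82.6 ± 6.46 to 111 ± 8.80 and 123 ± 4.47. PPP1R15A, the phosphatase subunit that reverses eIF2 alpha phosphorylation, rose from 105 ± 7.28 to 169 ± 6.95 and 175 ± 11.2 FPKM. Of the 4 eIF2 alpha kinases EIF2AK3 (PERK) rose at both doses, from 0.639 ± 0.0672 to 0.970 ± 0.0113 FPKM at 20 mM. Its limma adjusted p was 0.0485 at 10 mM, close to the threshold, and 0.0282 at 20 mM. EIF2AK4 (GCN2) fell at both doses, from 7.53 ± 0.889 to 5.30 ± 0.382 FPKM at 20 mM (limma adjusted p = 0.0373 at 10 mM and 0.0128 at 20 mM). EIF2AK1 (HRI) fell at 20 mM, and EIF2AK2 (PKR) did not pass the test. HIF1A, the hypoxia factor, fell at 20 mM from 85.8 ± 12.6 to 62.5 ± 5.25 FPKM (limma adjusted p = 0.0380).

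Among 10 other secreted stress factors 8 were tested, and 3 rose and 1 fell at 10 mM and 5 rose and 1 fell at 20 mM, and the list's median change was 0.16 and then 0.46 (log2). Of all tested genes 12.1% rose and 17.5% fell at 10 mM, and 15.4% rose and 21.6% fell at 20 mM. MANF, a neurotrophic factor held in the endoplasmic reticulum and released under stress, rose from 79.6 ± 7.83 FPKM (SD, n = 3) to 268 ± 31.4 and 288 ± 9.35. CRELD2, a factor of the same compartment, rose from 5.07 ± 0.891 to 18.3 ± 1.56 and 21.4 ± 0.363 FPKM. Their log2 fold changes at 20 mM, 1.85 and 1.89 (limma adjusted p = 1.05e-06 and 1.06e-06), compare with 1.92 for ADM2 on the same scale, which shrinks the change of the less abundant ADM2 more. VEGFA rose at 20 mM, from 29.4 ± 2.09 to 36.9 ± 0.0259 FPKM. IGFBP1 went the other way, from 50.2 ± 4.95 to 28.9 ± 3.14 and 29.6 ± 1.47 FPKM. Between the doses 0 genes passed the adjusted test in any of the 5 lists.

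**Figure D4:**
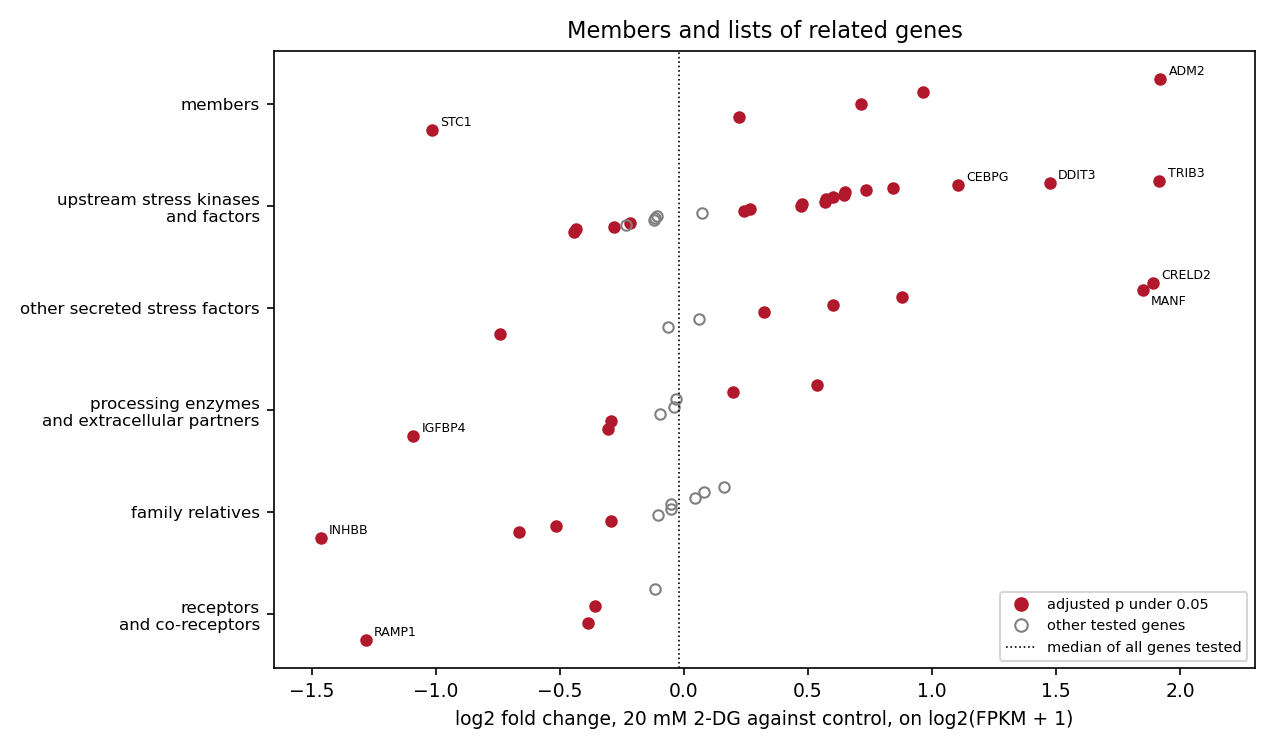
Log2 fold change at 20 mM 2-DG against control on log2(FPKM + 1) (horizontal axis) of the tested members and of the tested genes of 5 related lists (vertical groups); filled points have a limma adjusted p under 0.05, open points do not, and the dotted line is the median of all tested genes (-0.02). TRIB3, CRELD2, MANF, DDIT3 and CEBPG lie on the side of ADM2, and INHBB, RAMP1 and IGFBP4 on the side of STC1, each with a log2 fold change beyond 1 in size.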

How the data were processed

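MDA-MB-231 cells were sequenced in 9 libraries, 3 per group, made with a SMARTER mRNA-Seq kit. The authors deposited FPKM values, 1 table per library. The aligner, the counter and the annotation are not given in the sources used here, and the submitters' processing notes name GRCh38 (hg38). Groups came from the sample titles.

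Reads per gene were recovered from the FPKM values as whole numbers (tolerance 0.01 of a read): a length was found for all 32806 genes above 0, equal to the GENCODE 29 exon length or whole at it for 50.6%. For the other genes the shortest length searched that gave whole reads was taken. For rarely read genes finding such a length shows little, and their reads may be understated. The recovered reads served the filter and the intervals and are not the authors' counts. limma 3.58.1 (R 4.3.3) was fitted to log2(FPKM + 1) of all 9 libraries, with lmFit, contrasts and eBayes with a trend, without a replicate block, and Benjamini-Hochberg adjustment over 16570 genes. "Rose" and "fell" mean an adjusted p under 0.05. The added 1 understates changes of genes at low FPKM. Exact permutation tests (scipy 1.17.1) are two-sided.

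The members and gene lists were chosen with earlier results of these data known. From each list the text names genes past the study's thresholds in any comparison and the up to 3 others of highest mean FPKM; further list genes were named after their values were seen, and 1 list gene is counted but its values are not reported here. Exons of the 6 genes share no bases with other genes in GENCODE 29. The fits were also run on simulated data with large changes planted in well-read genes only, which does not cover STC2 or small changes. Replicates correlated at 0.989 to 0.996 (Pearson), and their reads differed by at least 4.66 times the sampling variance, so none was taken for a copy. This ratio to the sampling variance was 14.1 to 21.5 in the control, 26.4 to 56.7 at 10 mM and 4.66 to 6.57 at 20 mM. The 20 mM values carry more decimals than the others, and why the spread differed was not tested. The pseudocount, filter, scaling, model, call rule, block and libraries were varied.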

Additional observations from a re-analysis of the deposited data

How the results depend on the processing

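Depth limits FGF21 (27 reads in the treated libraries, 0 in the control) and STC2, and 3 libraries per group cannot give an exact p under 0.1. ADM2, GDF15, NUPR1 and STC1 kept their direction and an adjusted p under 0.05 against control in every limma run at both doses, including without each library. The count of members past the study's thresholds was 1 at 10 mM; it was 2 with a pseudocount of 0.1 or limma-voom, where NUPR1 joined ADM2, 1 to 2 without single libraries and 4 by adjusted p alone. At 20 mM it was 2; it was 3 with a pseudocount of 0.1, 1 with median-ratio scaling (STC1 at -0.96), 4 with limma-voom, 1 to 3 without single libraries (1 without control replicate 2 or 3 or 20 mM replicate 1; 3 without control replicate 1 or 20 mM replicate 3) and 5 by adjusted p alone. By adjusted p alone 12.1% of all tested genes were higher and 17.5% lower at 10 mM, and 15.4% and 21.6% at 20 mM. The shares over all genes in the other varied settings were not taken. A change in the count of members there cannot be told from one over all genes. Between the doses the count of members was 0 throughout.

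STC2 at 20 mM kept its log2 fold change of 0.22 but not its call when all genes above 0 were tested (adjusted p = 0.127, with 32806 genes in place of 16570) and with the replicate block (0.22, adjusted p = 0.0569); without single libraries it ranged from 0.16 to 0.26. STC2 at 10 mM, not called, was -0.0063 without 10 mM replicate 2 (range -0.0063 to 0.11). NUPR1 between the doses, near 0, was 0.011 with median-ratio scaling and -0.086 to 0.073 without single libraries. Replicate numbers did not pair the samples: of 9 same-numbered pairs 3 had correlated deviations over 0.1 (range -0.41 to 0.29). The highest correlations were in pairs of unlike number. They were 0.52 for control replicate 1 with 10 mM replicate 2 and 0.49 for control replicate 2 with 10 mM replicate 1. A grouping of libraries other than by number was not tested. The block by replicate number changed no other call and no count. Causes were not tested.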

Other observations

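For each of the 5 tested members, the tested protein-coding genes whose log2(FPKM + 1) ran most nearly parallel over the 9 libraries were ranked by Pearson's r, as a description with no test. The 9 points share libraries and fall into 3 dose groups, so any gene with the same step between groups scores high. Nearest to ADM2 were HERPUD1 (0.997), TRIB3 (0.997) and FZD8 (0.996). Nearest to GDF15 were SPHK1 (0.998), SDF2L1 (0.997) and RBCK1 (0.996). NUPR1 ran closest to TMC8 (0.994), PPP1R15A (0.991) and GDF15 (0.990), which is itself among the 6 genes. The falling pattern of STC1 was nearest to PHF20 (0.993), RFWD3 (0.987) and RPRD1A (0.987). STC2, with the fewest reads among the tested members, had the loosest neighbours, PDE5A (0.953), OSBP2 (0.917) and ACTR5 (0.916). SDF2L1 moved from 35.7 ± 7.68 FPKM in the control (SD, n = 3) to 103 ± 15.2 at 10 mM and 122 ± 8.86 at 20 mM.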
